A study of Mus musculus with 15 samples.

Results

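The ErbB receptors and their ligands were described across mouse mammary tumors as 10 listed genes, 4 receptors (Egfr, Erbb2, Erbb3 and Erbb4) and 6 ligands (Ereg, Areg, Hbegf, Tgfa, Nrg1 and Nrg4). A gene was measured when a transcript cluster (the array's set of probes for a transcript) carried exactly 1 gene symbol, and the brightest such cluster stood for the gene. This gave 9 of the 10 genes among 22180 measured in the series. For Areg, the platform annotation used here lists no cluster, so Areg has no value below. A gene was tested when it lay above the array's median on at least 5 arrays, which 8 of the 9 did, among 14243 genes tested. Erbb4 did not and is only described.

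The tumors came from ErbB2KI mice, a knock-in model of Erbb2-driven breast cancer, and were flash frozen at end burden. All groups carry this oncogene. They differ in beta-catenin (Ctnnb1), which was targeted in the mammary epithelium: 5 tumors were Ctnnb1 fl/fl (called HOM), 5 were Ctnnb1 fl/wt (HET) and 5 were Ctnnb1 wt/wt (WT). Neither the Cre line, the ages nor the animal behind each tumor is given in the sources used, so p-values measure only the spread between these tumors, which could share a mouse. Values are log2 intensities from 1 array per tumor. Group values are the mean ± SD, with n = 5 in each genotype, and a fold is 2 raised to the log2 difference.

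The 4 ErbB receptors are tyrosine kinases that act as pairs. Ligands of the EGF type (Ereg, Areg, Hbegf, Tgfa) bind Egfr, some of them also Erbb4, and neuregulins bind Erbb3 or Erbb4. Erbb2 has no known ligand of its own and serves as the favoured partner of the others, with Erbb3, whose own kinase is weak, as its main link to PI3-kinase in mammary tumors. The ligands are made as membrane proteins and released by proteases. In ErbB2KI mice an activated Erbb2 allele is expressed from the endogenous Erbb2 promoter after Cre recombination. How far the Erbb2 cluster reads the knocked-in allele and how far the endogenous one is not known here.

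Promoter sequences are shown for 4 measured genes. Erbb2 was chosen because its promoter drives the oncogene, and Nrg4 because, like Erbb2, it had no overlap between HET and WT. Egfr and Tgfa are a receptor and its ligand. Across tumors they correlated by Pearson's r (0.760), while their Spearman's rho (0.354) did not pass adjustment. Each sequence is the 250 bases before a start site from RefSeq (GRCm38.p6), which held 6 of the 10 listed genes, on the gene's own strand. In RefSeq the Tgfa gene begins at 86195038 and the minus-strand Nrg4 gene at 55283654. Both positions fall within the windows, so the Tgfa and Nrg4 windows belong to a start site inside the gene. Capitals mark matches, on either strand, to the GC box GGGCGG, the CCAAT box CCAAT, the TATA box TATAAA, the AP-1 motif TGANTCA, the AP-2 motif GCCNNNGGC and the TCF/LEF core CTTTGA, the last being the motif of the partners of beta-catenin.
Erbb2, chr11:98412234-98412483, plus strand: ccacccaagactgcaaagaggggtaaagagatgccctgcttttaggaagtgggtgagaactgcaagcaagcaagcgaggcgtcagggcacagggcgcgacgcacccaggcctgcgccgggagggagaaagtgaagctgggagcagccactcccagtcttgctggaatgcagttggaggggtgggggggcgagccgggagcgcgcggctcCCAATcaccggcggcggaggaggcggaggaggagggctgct
Nrg4, chr9:55283626-55283875, minus strand: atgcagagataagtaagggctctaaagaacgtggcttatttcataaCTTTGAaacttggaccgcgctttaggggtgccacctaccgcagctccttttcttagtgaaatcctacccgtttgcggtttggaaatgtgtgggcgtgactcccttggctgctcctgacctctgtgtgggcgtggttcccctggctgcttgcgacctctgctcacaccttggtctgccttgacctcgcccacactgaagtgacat
Egfr, chr11:16751953-16752202, plus strand: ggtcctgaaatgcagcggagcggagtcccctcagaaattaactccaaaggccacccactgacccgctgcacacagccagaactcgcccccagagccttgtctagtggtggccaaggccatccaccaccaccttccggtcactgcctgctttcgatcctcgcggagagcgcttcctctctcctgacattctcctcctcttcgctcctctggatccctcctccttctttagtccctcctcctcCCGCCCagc
Tgfa, chr6:86194972-86195221, plus strand: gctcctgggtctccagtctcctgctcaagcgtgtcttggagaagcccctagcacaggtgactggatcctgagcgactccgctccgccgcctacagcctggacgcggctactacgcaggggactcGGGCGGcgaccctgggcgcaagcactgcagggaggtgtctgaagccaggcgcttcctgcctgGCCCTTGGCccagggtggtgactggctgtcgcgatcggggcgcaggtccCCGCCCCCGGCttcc

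The windows differed in the motifs they held. With positions counted from each window's own start site, the Erbb2 window had 1 CCAAT box at -41 to -37 and a GC content of 66%. The Nrg4 window had 1 TCF/LEF core at -204 to -199. The Egfr window had 1 GC box at -9 to -4, and the Tgfa window had 2 GC boxes and 2 AP-2 motifs, of which the GC box and the AP-2 motif nearest the start site overlap. Among all 32851 promoter windows of the same length, 33.8% held a CCAAT box, 13.8% a TCF/LEF core, 32.7% a GC box and 13.7% an AP-2 motif, while TATA boxes (12.4%) and AP-1 motifs (6.75%) occurred in none of the 4 windows shown. A match is a description of the letters only.

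Before the members, 3 facts of the series bear on them. Ctnnb1 itself was 12.01 in HOM 5, against 11.15 to 11.58 in the other HOM tumors, and 11.22 in WT 5, against 11.71 to 12.10 in the other WT tumors, so these libraries go against their labels. The genotype differences and the correlations were recomputed without them. The tissue label was checked by 20 epithelial markers, all of them tested, whose mean lay between 9.18 and 10.63 in 14 tumors and at 7.52 in HET 1. Skeletal muscle markers, of which 8 of 12 were tested, averaged 11.33 in HET 3, against 5.84 to 6.83 in the other 14 tumors.

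**Figure D1:**
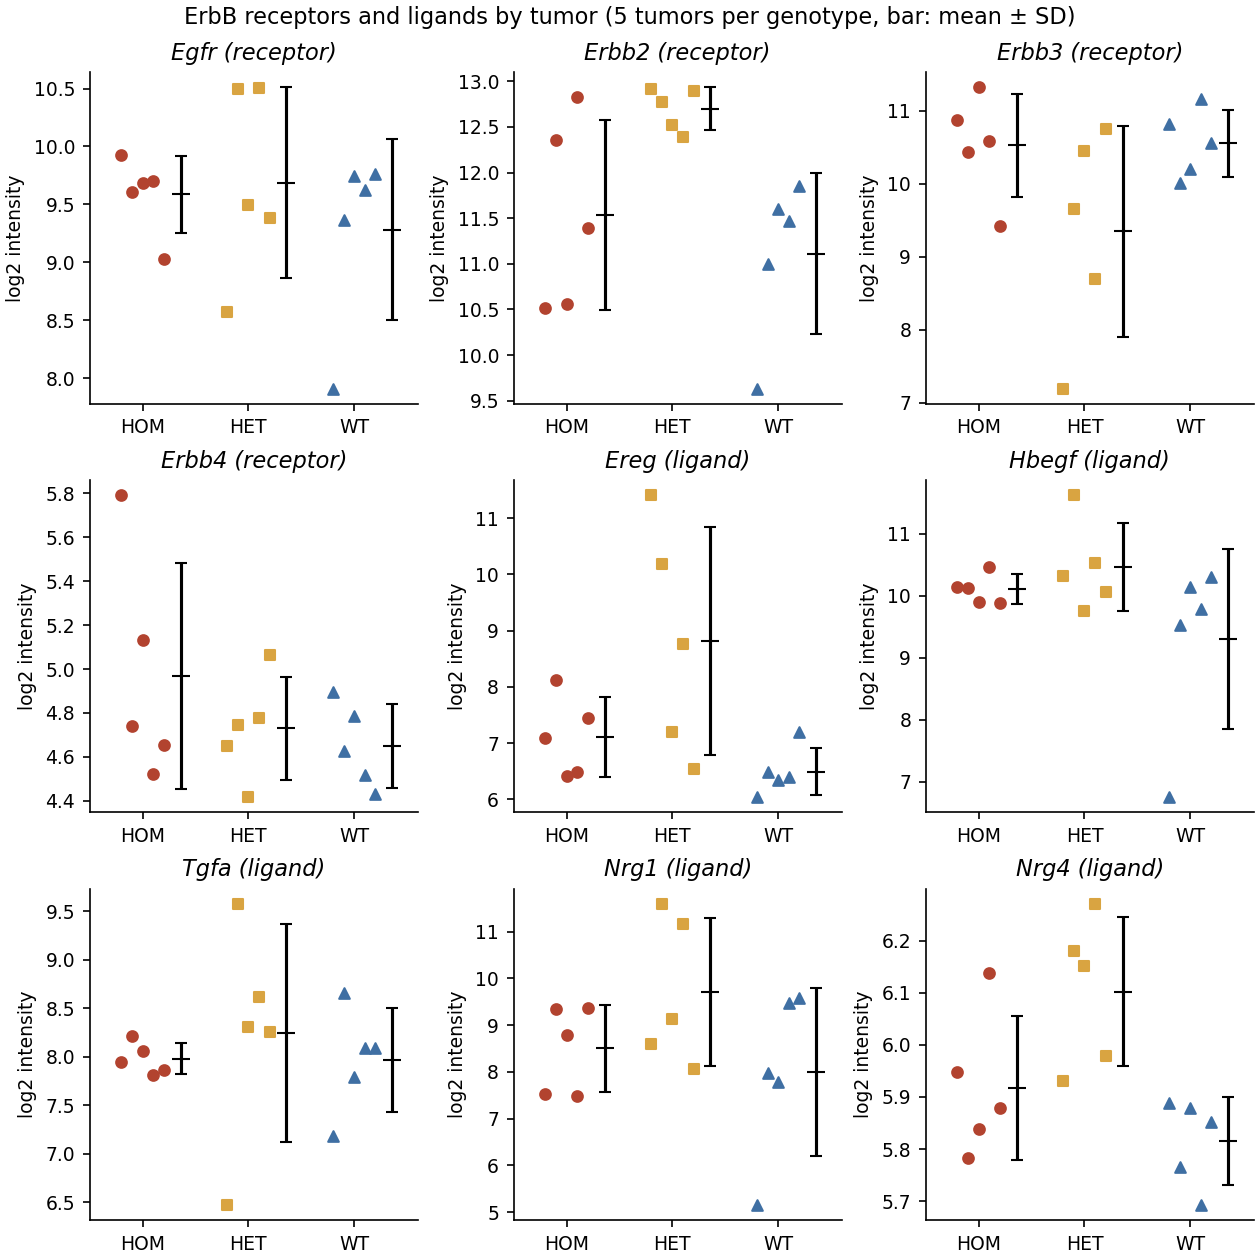
Log2 intensity of the 9 measured ErbB genes in each tumor, by genotype (x axis: HOM, HET, WT), with 1 point per tumor and a bar for mean ± SD (n = 5). The y axes do not start at 0 and differ between panels. Erbb2 and Nrg4 were higher in every HET tumor than in any WT tumor, Ereg was highest in HET 1, HET 2 and HET 4, and WT 1 was the lowest WT tumor for Egfr, Erbb2, Ereg, Hbegf, Tgfa and Nrg1.

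Among the receptors, Erbb2 separated HET from WT. Erbb2 was 12.92, 12.78, 12.52, 12.39 and 12.89 in HET tumors 1 to 5, against 9.63, 11.001, 11.60, 11.47 and 11.85 in WT tumors 1 to 5. Every HET tumor lay above every WT tumor, and the HET tumors were close together. The HET mean of 12.70 ± 0.23 and the WT mean of 11.11 ± 0.88 differed by 1.59 (95% interval 0.58 to 2.595), or 3.01-fold (two-sided exact permutation p = 0.00794, which is the lowest value possible with 5 tumors a side). After Benjamini-Hochberg adjustment over all genes in limma the difference did not pass (adjusted p = 0.224). In HOM tumors 1 to 5 Erbb2 was 10.52, 12.36, 10.56, 12.83 and 11.39, so HOM 4 lay within the HET range, HOM 2 just under it, and the others within the WT range. The HOM mean was 11.53 ± 1.04. HOM differed from HET by -1.17 (95% interval -2.17 to -0.16, limma adjusted p = 0.587) and from WT by 0.42 (-0.59 to 1.43, limma adjusted p = 1 after rounding). The difference between HOM and WT was 0.0503 without WT 1, 0.0968 without HOM 4, 0.21 without HOM 2 and 0.67 without HOM 1. In whole tumors, fewer cells of a type and less RNA per cell cannot be told apart.

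Egfr, the receptor of the EGF-type ligands, overlapped between all genotypes. It was 9.92, 9.61, 9.68, 9.70 and 9.03 in HOM tumors 1 to 5, 8.57, 10.50, 9.49, 10.50 and 9.38 in HET tumors 1 to 5 and 7.91, 9.37, 9.75, 9.62 and 9.76 in WT tumors 1 to 5. HET 2 and HET 4 stood above the other tumors and WT 1 below them. HET differed from WT by 0.41 (95% interval -0.46 to 1.27), a difference that was 0.06 without WT 1, and HOM differed from WT by 0.31 and by -0.0367 without WT 1.

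Erbb3, the neuregulin receptor, had its lowest values in HET tumors. It was 7.19, 9.66, 10.45, 8.70 and 10.75 in HET tumors 1 to 5, against 10.83, 10.01, 10.21, 11.16 and 10.56 in WT tumors 1 to 5. HET 1 and HET 4 were the lowest of all 15 tumors. The means were 9.35 ± 1.44 in HET and 10.55 ± 0.46 in WT, a difference of -1.21 (95% interval -2.42 to 0.00483, limma adjusted p = 0.374), and the difference was -0.67 without HET 1. HOM tumors, at 9.42 to 11.32 and with a mean of 10.53 ± 0.71, differed from WT by -0.0242. Erbb4, the other neuregulin receptor, was dim: it lay below the array's median on 14 of 15 arrays and above it only in HOM 1, at 5.79. Its means were 4.97 ± 0.51 in HOM, 4.73 ± 0.23 in HET and 4.65 ± 0.19 in WT, and the genotypes overlapped.

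Among the ligands, Ereg (epiregulin, which binds Egfr and Erbb4) varied most within HET. It was 11.40, 10.19, 7.19, 8.76 and 6.54 in HET tumors 1 to 5, against 6.04, 6.48, 6.35, 6.40 and 7.19 in WT tumors 1 to 5. HET 1, HET 2 and HET 4 lay well above all WT tumors, HET 3 was level with WT 5, and HET 5 lay within the WT range. The means, 8.82 ± 2.03 in HET and 6.49 ± 0.42 in WT, differed by 2.32 (95% interval 0.74 to 3.91, exact permutation p = 0.0159, limma adjusted p = 0.242). In HOM tumors Ereg was 7.09, 8.12, 6.42, 6.48 and 7.45, and HOM differed from WT by 0.62 and from HET by -1.71. A second Ereg cluster was dimmer and correlated with the first across tumors (r = 0.925), and its HET mean exceeded its WT mean by 0.61. It was 7.90, 6.83 and 6.45 in HET 1, HET 2 and HET 4 and 5.87 to 6.29 in all other tumors, so this r rests largely on those tumors.

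Nrg4, a ligand of Erbb4, showed a small difference in a dim signal, near the array medians of 5.54 to 5.73. It was 5.93, 6.18, 6.15, 6.27 and 5.98 in HET tumors 1 to 5, against 5.89, 5.77, 5.88, 5.69 and 5.85 in WT tumors 1 to 5. The groups did not overlap, with a narrow gap between HET 1 and WT 1. The difference was 0.29 (95% interval 0.08 to 0.50, exact permutation p = 0.00794), or 1.22-fold, and did not pass over all genes (limma adjusted p = 0.262). Of the 8 members tested, 2 (Erbb2 and Nrg4) thus had HET wholly above WT, as had 0.534% of the 14243 genes tested. The members were proposed with these results known, so this count is a description. HOM tumors had 5.92 ± 0.14, between both other groups.

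Hbegf, which binds Egfr and Erbb4, overlapped between genotypes apart from WT 1. It was 10.15, 10.12, 9.90, 10.47 and 9.88 in HOM tumors 1 to 5, 10.32, 11.62, 9.76, 10.52 and 10.06 in HET tumors 1 to 5, and 6.75, 9.53, 10.13, 9.79 and 10.30 in WT tumors 1 to 5. WT 1 was far below every other tumor and HET 2 above them. HET differed from WT by 1.16 (95% interval -0.0306 to 2.34, limma adjusted p = 0.382) and by 0.52 without WT 1. With the epithelial marker mean as a covariate the difference was 1.16, and with the leukocyte and fibroblast means it was 0.33. With the neutrophil mean, a covariate added after the data were seen, it was 0.24. HOM differed from WT by 0.80 and by 0.17 without WT 1.

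Nrg1 (neuregulin 1, the ligand of Erbb3 and Erbb4) had the widest span among WT tumors. It was 7.53, 9.33, 8.80, 7.48 and 9.36 in HOM tumors 1 to 5, 8.59, 11.60, 9.13, 11.16 and 8.07 in HET tumors 1 to 5 and 5.15, 7.99, 7.78, 9.48 and 9.59 in WT tumors 1 to 5. HET 2 and HET 4 were the highest tumors and WT 1 the lowest. HET differed from WT by 1.71 (95% interval -0.14 to 3.56, limma adjusted p = 0.397), and by 0.998 without WT 1. With the epithelial marker mean as a covariate the difference was 1.76, and with the leukocyte and fibroblast means it was 1.39. With the neutrophil marker mean, a covariate added after the data were seen, the difference was -0.33, the opposite direction. HOM differed from WT by 0.50, and by -0.21 without WT 1.

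Tgfa, a ligand of Egfr, was 7.81 to 8.21 in HOM, 6.47 to 9.58 in HET and 7.19 to 8.65 in WT. HET 1 was its lowest and HET 2 its highest tumor. HET differed from WT by 0.28 (95% interval -0.63 to 1.19, limma adjusted p = 0.796). The difference was 0.72 without HET 1, -0.0539 without HET 2 and 0.0857 without WT 1.

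**Figure D2:**
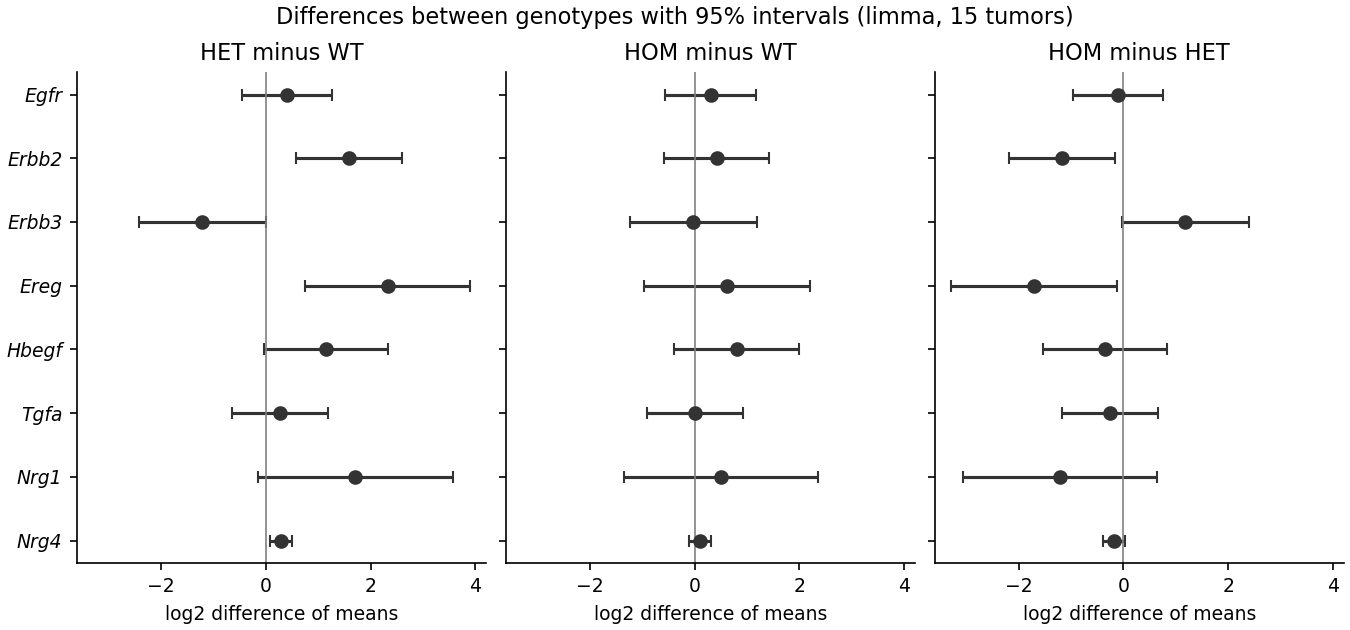
Differences of genotype means on the log2 scale (x axis) for the 8 tested ErbB genes (y axis), with 95% intervals from the limma fit of 15 tumors. For HET minus WT, the intervals of Erbb2, Ereg and Nrg4 lay above 0. For HOM minus WT, all 8 intervals included 0.

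Over the whole family, no member was called in any comparison. HET against WT called 0 of 8 members, against 0.014% of all genes tested (2 of 14243). In HET, 7 members were higher and 1 lower, while 45.5% of all genes tested were higher. The median difference was 0.78 over the members, against -0.0299 over all genes tested. At an unadjusted p under 0.05 there were 3 members in that limma fit, Erbb2, Ereg and Nrg4, beside 13.4% of all genes tested (1905 of 14243). HOM against WT called 0 members and 0% of all genes, with 0 members and 1.7% of all genes at an unadjusted p under 0.05, and a median difference of 0.36 over the members and -0.0117 over all genes. HOM against HET also called 0 members and 0% of all genes, with Erbb2 and Ereg and 7.93% of all genes at an unadjusted p under 0.05, and a median difference of -0.31 over the members and 0.0139 over all genes. Groups that did not overlap occurred for 0 members in both comparisons with HOM, against 0.281% of genes for HOM and WT and 1.03% for HOM and HET. These comparisons share tumors, so their directions are not independent. Without WT 5 and HOM 5, again no member was called. HET then differed from WT by 1.77 for Erbb2, 2.50 for Ereg, 0.30 for Nrg4, 1.41 for Hbegf, 2.11 for Nrg1, 0.53 for Egfr, 0.31 for Tgfa and -1.21 for Erbb3. HOM differed from WT by 0.64 for Erbb2, 0.71 for Ereg, 0.12 for Nrg4, 1.11 for Hbegf, 0.69 for Nrg1, 0.57 for Egfr, 0.0741 for Tgfa and 0.25 for Erbb3, whose direction turned.

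Co-variation was examined over the 36 pairs of the 9 measured members, with Pearson's r and Spearman's rho over 15 tumors, a two-sided permutation test and adjustment over the 36 pairs. An absolute r of at least 0.6 was reached by 7 pairs, and 6 of them passed at an adjusted p under 0.05 by Pearson's r. For these 7 pairs, 0.323% to 2.86% of tested genes had an absolute r with the pair's first-named gene at least as large. It was 1.32% for Erbb2 and Hbegf, 2.45% for Hbegf and Nrg1 and 2.59% for Erbb3 and Ereg. The share over all pairs of genes was not computed. By Spearman's rho 0 of 36 pairs passed. With 5 tumors a genotype, no correlation was computed within a genotype. Values with each genotype's mean subtracted are given instead.

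**Figure D3:**
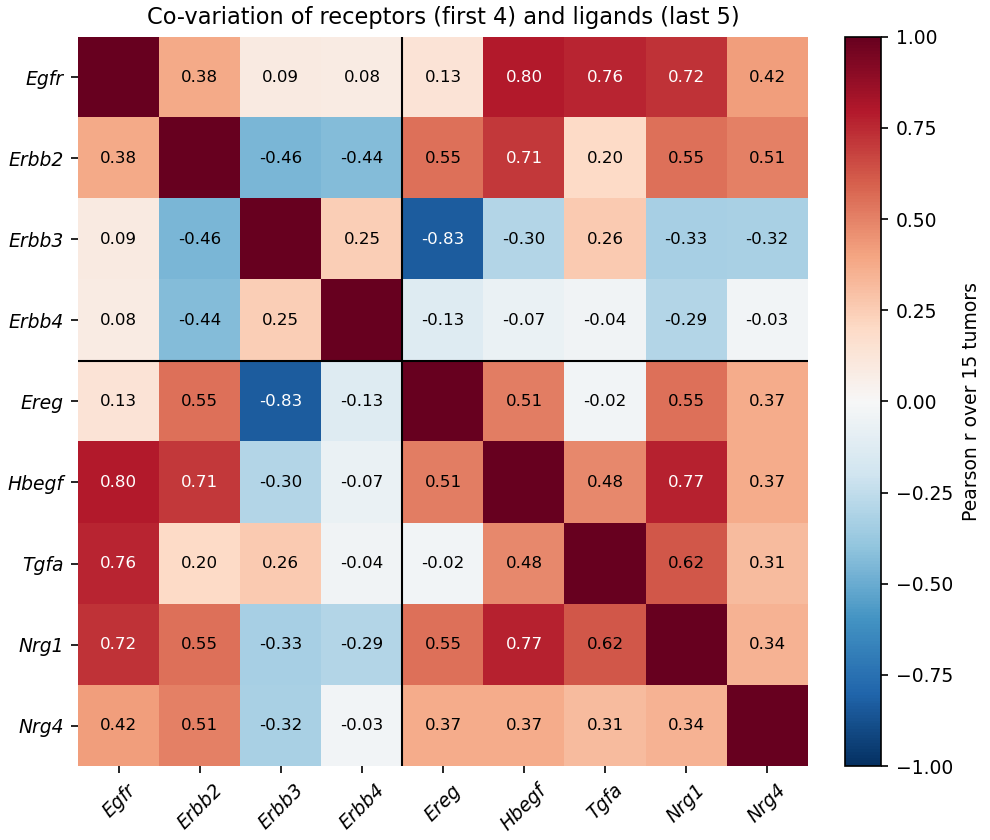
Pearson's r over 15 tumors for each pair of measured ErbB genes, receptors first and ligands last, with colour from blue (-1) to red (1). Egfr correlated with Hbegf, Tgfa and Nrg1 at 0.72 to 0.80, and Erbb3 and Ereg ran opposite at -0.83.

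Egfr correlated with Hbegf, Tgfa and Nrg1. Egfr and Hbegf had r = 0.795 (permutation p = 0.0011, adjusted p = 0.0157) and rho = 0.693 (p = 0.00551, adjusted p = 0.0992), and 0.323% of tested genes had an absolute r with Egfr at least as large. Without HET 1 and WT 1, the tumors farthest from the Egfr median, r was 0.781, and with genotype means subtracted it was 0.790. Without WT 1 alone it was 0.568. Egfr and Tgfa had r = 0.760 and rho = 0.354 (adjusted permutation p = 0.0168 and 0.448), with r = 0.578 without the same tumors. Egfr and Nrg1, which is no ligand of Egfr, had r = 0.724 and rho = 0.389 (adjusted permutation p = 0.0187 and 0.448), with r = 0.584 without them.

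Nrg1 also varied with Hbegf and Tgfa. Hbegf and Nrg1 had r = 0.768 and rho = 0.325 (adjusted permutation p = 0.0168 and 0.448), and r was 0.163 without HET 2 and WT 1, so this relation rests on those tumors. Tgfa and Nrg1 had r = 0.621 and rho = 0.575 (adjusted p = 0.0904 and 0.156), with r = 0.716 without HET 1 and HET 2.

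Among the pairs with Erbb2, Hbegf alone passed adjustment by Pearson's r. The pair had r = 0.708 (permutation p = 0.00131, adjusted p = 0.0157) and rho = 0.568 (adjusted p = 0.156), with r = 0.557 without HOM 1 and WT 1 and 0.644 with genotype means subtracted. Without WT 1 alone r was 0.499. With Ereg, Nrg1 and Nrg4, Erbb2 had r of 0.553, 0.551 and 0.506, none past adjustment (adjusted p = 0.134, 0.134 and 0.181). The rho of Erbb2 with Ereg was 0.589 (adjusted p = 0.156), above its rho with Hbegf, and without HOM 1 and WT 1 the r with Nrg4 was 0.635, above that with Hbegf. With genotype means subtracted the r with Ereg, Nrg1 and Nrg4 became 0.189, 0.352 and 0.0178. With Egfr, Tgfa, Erbb3 and Erbb4, Erbb2 had r of 0.382, 0.199, -0.458 and -0.436 (adjusted p from 0.229 to 0.617).

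Erbb3 and Ereg ran in opposite directions. Their r was -0.835 (permutation p = 0.00099, adjusted p = 0.0157) and their rho -0.689 (adjusted p = 0.0992). Without HET 1 and HET 4, the tumors with the least Erbb3, r was -0.566, and with the epithelial markers accounted for it was -0.561 over all tumors. Without WT 5 and HOM 5, again 7 pairs had an absolute r of at least 0.6, a setting added after the data were seen, and Erbb3 and Ereg had r = -0.851.

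Cell type markers moved with several members. Means of 12 marker lists were set against the 9 members, 108 relations adjusted together, and 16 passed at an adjusted p under 0.05 by Pearson's r, of which 5 also passed by Spearman's rho. Erbb3 followed the epithelial markers, with r = 0.960 and rho = 0.921 (adjusted permutation p = 0.00054 for each), r = 0.853 without HET 1 and HET 4 and r = 0.953 with genotype means subtracted. HET 1, lowest in Erbb3 at 7.19, was lowest in epithelial markers at 7.52, and HET 4, next in Erbb3 at 8.70, was next in those markers at 9.18. With the epithelial mean as a covariate, Erbb3 differed between HET and WT by -0.32 in place of -1.21.

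Ereg followed the neutrophil markers, of which 13 of 14 were tested. Pearson's r was 0.922 and rho 0.975 (adjusted permutation p = 0.00054 for each), r was 0.920 without HET 1 and HET 2, and it was 0.867 with genotype means subtracted. The neutrophil mean spanned 6.70 to 9.19 in HOM, 7.54 to 10.58 in HET and 6.05 to 7.64 in WT. In HET 1, HET 2 and HET 4, where Ereg was 8.76 to 11.40, that mean was 10.41, 10.58 and 9.69. With it as a covariate, a setting added after the data were seen, Ereg differed between HET and WT by -0.18 in place of 2.32 (adjusted p = 1 after rounding). The planned covariates kept the direction: the Ereg difference was 1.46 with the epithelial mean and 1.61 with the leukocyte and fibroblast means. The neutrophil covariate changed the Erbb2 difference to 1.05 and the Nrg4 difference to 0.31. The neutrophil mean also ran opposite to Erbb3 (r = -0.795, rho = -0.746, adjusted p = 0.00605 and 0.0475). Nrg1 followed the neutrophil markers too (r = 0.709, adjusted p = 0.0253, rho = 0.650, adjusted p = 0.105), with r = 0.745 without HET 1 and HET 2. Without WT 5 and HOM 5, r with the neutrophil markers was 0.950 for Ereg and 0.724 for Nrg1. Which cells gave the Ereg and Nrg1 signals was not tested.

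**Figure D4:**
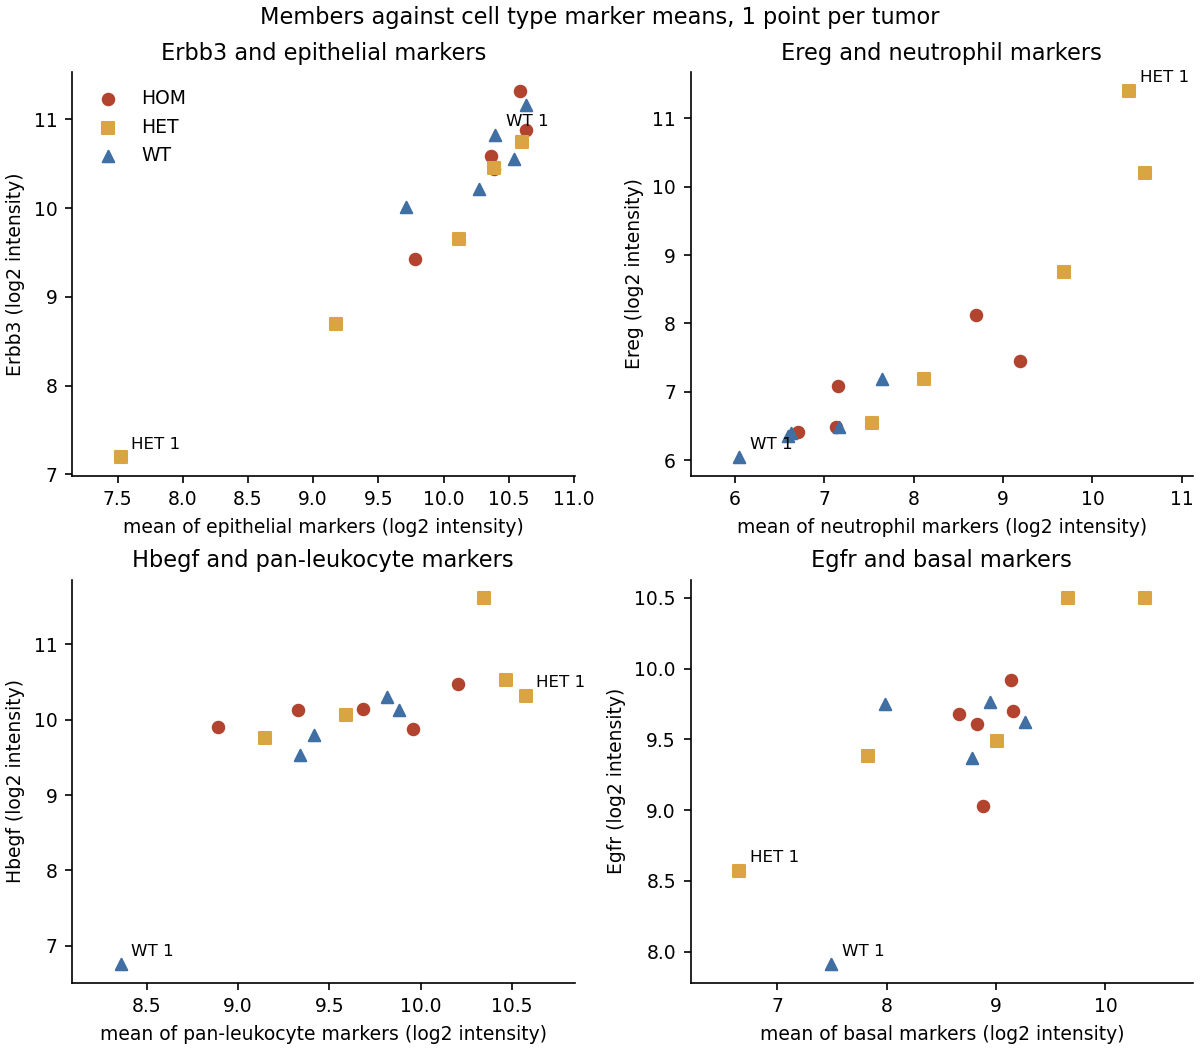
Log2 intensity of 4 ErbB genes (y axes) against the mean log2 intensity of a cell type marker list (x axes), with 1 point per tumor and colour and shape by genotype. Ereg was highest in HET 1, HET 2 and HET 4, which also had the 3 highest neutrophil means, and HET 1 had the lowest Erbb3 and the lowest epithelial mean.

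Hbegf followed the 10 pan-leukocyte markers (r = 0.778, rho = 0.814, adjusted p = 0.0036 and 0.0169), with r = 0.715 without HET 1 and WT 1. WT 1 was lowest in both, with 6.75 for Hbegf and 8.36 for the markers. Egfr and Tgfa followed the basal markers, of which 9 of 10 were tested (r = 0.800 and 0.768, adjusted permutation p = 0.00918 and 0.0198). Without HET 1 and HET 4, the lowest and highest tumors in basal markers, r was 0.712 and 0.604. Over all 15 tumors the rho of Egfr and Tgfa with these markers, 0.718 and 0.525, did not pass (adjusted permutation p = 0.0643 and 0.237). No member is itself in any marker list, and the part of these cells in the members' levels was not tested.

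Erbb2 and the epithelial and neutrophil markers gave no relation past adjustment. Its r was -0.336 with epithelial and 0.638 with neutrophil markers (adjusted p = 0.42 and 0.0624). It passed against pan-leukocyte markers (r = 0.693, adjusted p = 0.0329, rho = 0.571, adjusted p = 0.168), and r was 0.451 without HET 1 and WT 1. With leukocyte and fibroblast means as covariates, Erbb2 differed between HET and WT by 0.87. It ran opposite to the Schwann cell and nerve markers (7 of 10 tested, r = -0.703, rho = -0.739, adjusted p = 0.0329 and 0.0475), with r = -0.345 once genotype means were subtracted.

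**Figure D5:**
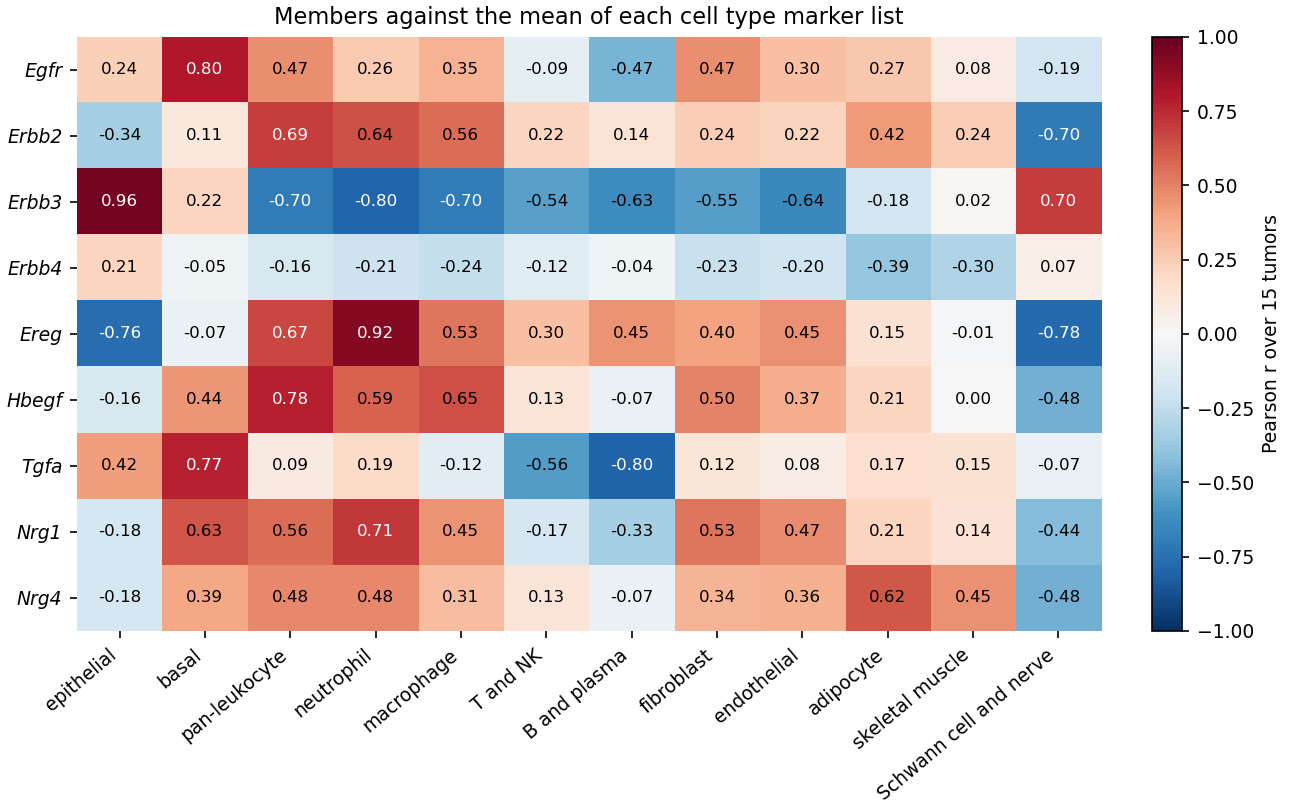
Pearson's r over 15 tumors between each measured ErbB gene (rows) and the mean of each cell type marker list (columns), with colour from blue (-1) to red (1). The highest values are Erbb3 with epithelial markers (0.96) and Ereg with neutrophil markers (0.92).

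The genes whose levels were most like each member's were found by Pearson's r among the 14243 tested genes. For Erbb3 they were Ccdc120, Camsap3 and Tmem184a (r = 0.973, 0.964 and 0.963), which had 0.846 to 0.895 without HET 1 and HET 4. For Ereg they were Trem3, Ifitm6 and Fam102b (r = 0.968, 0.950 and 0.946), which had 0.903, 0.807 and 0.759 without HET 1 and HET 2. For Hbegf they were Il13ra1, an interleukin receptor subunit, Tgfbi and the proteoglycan Sdc1 (r = 0.957, 0.921 and 0.916). Without HET 2 and WT 1 these were 0.625, 0.822 and 0.699.

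For the other members r was lower. Erbb2 was most like the interleukin 1 receptor antagonist Il1rn, Ciao2b and the adhesion molecule Icam1 (r = 0.849, 0.833 and 0.820, and 0.762, 0.669 and 0.706 without HOM 1 and WT 1). Egfr was most like Fam167a, the Notch ligand Jag1 and Basp1 (r = 0.894, 0.884 and 0.877, and 0.837, 0.681 and 0.566 without HET 1 and WT 1). Tgfa was most like Gsta4, desmoplakin (Dsp) and the desmosome gene Perp (r = 0.894, 0.883 and 0.864, and 0.702, 0.737 and 0.716 without HET 1 and HET 2). Nrg1 was most like interleukin 1 alpha (Il1a), Phlda2 and Serpinb8 (r = 0.911, 0.905 and 0.9004, and 0.863, 0.732 and 0.767 without HET 2 and WT 1). For Nrg4, Mir483, Slc25a3 and Ablim1 came first (r = 0.836, 0.805 and 0.798, and 0.688, 0.746 and 0.604 without HET 2 and HET 4). For the dim Erbb4 they were Tmprss6, Zfp846 and Taf1c (r = 0.725, 0.717 and 0.704), whose r was 0.571, 0.383 and 0.3002 without HOM 1 and HOM 3. Without WT 5 and HOM 5, the r of the named genes with their members ran from 0.708 to 0.976.

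Other genes of the pathway were read from 6 gene lists, and 0 genes of these lists passed in limma in any comparison. At an unadjusted p under 0.05 in limma the lists held 0 to 4 genes each per comparison. The share of all genes tested was 13.4% for HET and WT, 1.7% for HOM and WT and 7.93% for HOM and HET. Of 5 further ligands, 3 were tested. Epigen (Epgn), which neighbours Ereg in the RefSeq table, averaged 8.48 ± 1.72 in HET tumors and 7.16 ± 0.95 in WT tumors (limma adjusted p = 0.483), and betacellulin (Btc) 6.75 ± 0.51 and 6.43 ± 0.68 (adjusted p = 0.753). Nrg2 differed by -0.24 between HET and WT. Egf and Nrg3 were too dim to be tested, apart from a single Egf value of 7.16 in WT 1.

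Genes that act on or below the receptors were not called either. The counts of genes higher in HET than in WT below stand beside 45.5% of all genes tested. Sheddases and their regulators had 6 of 8 genes higher in HET than in WT, with a median difference of 0.19, and Rhbdf1, an inactive rhomboid that guides the sheddase Adam17, averaged 9.42 ± 0.18 in HET tumors and 9.70 ± 0.13 in WT tumors (limma adjusted p = 0.330). Adaptors and kinases had 11 of 22 higher, with a median of -0.00836, and the small GTPase Nras averaged 10.84 ± 0.11 in HET tumors and 10.53 ± 0.10 in WT tumors (limma adjusted p = 0.224). The PI3-kinase subunit Pik3r1 differed by -0.53 between HET and WT. Negative regulators had 8 of 23 higher, with Cblb, a ubiquitin ligase, at 10.13 ± 0.31 in HET tumors against 9.45 ± 0.49 in WT tumors (adjusted p = 0.257). The cytokine signalling inhibitor Socs3 was at 8.56 ± 0.50 in HET tumors, against 7.72 ± 0.61 in WT tumors (adjusted p = 0.266). Immediate early and ERK target genes had 8 of 16 higher, with the ETS factor Etv5 at 9.10 ± 0.76 in HET and 10.23 ± 0.94 in WT (adjusted p = 0.292). Among 10 Erbb2 partners, 4 were higher and 4 had an unadjusted p under 0.05 in limma, which 13.4% of all genes tested had. They included the mucin Muc1 at 7.01 ± 1.17 in HET and 8.64 ± 0.997 in WT, and Sdc1 at 10.04 ± 0.38 and 9.44 ± 0.49 (adjusted p = 0.257 and 0.290). Between HOM and HET, Muc1 averaged 8.59 ± 0.56 in HOM tumors and 7.01 ± 1.17 in HET tumors. Etv5 averaged 10.16 ± 0.28 and 9.10 ± 0.76 (limma adjusted p = 0.587 for each). The ERK target Ccnd1 went the other way, with 11.75 ± 0.24 in HOM and 12.23 ± 0.22 in HET (limma adjusted p = 0.587). Of the 16 ERK targets, 10 were higher in HOM than in HET, as were 52.4% of all genes tested. Between HOM and WT, 2 of 23 negative regulators and 1 of 16 ERK targets had an unadjusted p under 0.05 in limma. In the other lists 0 genes did, and among all genes tested 1.7% did.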

How the data were processed

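Total RNA of 15 tumors was labelled for Affymetrix arrays, 1 per tumor. The deposited table holds 41345 transcript clusters as log2 intensities, a scale inferred from their range of 1.06 to 13.9. Per the submitters' processing notes, Transcriptome Analysis Console and Affymetrix Expression Console were used. Background correction and normalization are not stated there. Array medians lay between 5.54 and 5.73, and precision is limited by how many arrays there are. In the platform annotation 23521 clusters had exactly 1 symbol, 1814 had several and 16010 had none listed. Symbols checked by Entrez ID in RefSeq (GRCm38.p6), for 23328 clusters, led to 0 changes.

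One limma model (limma 3.58.1, R 4.3.3, eBayes, two-sided) covered all 3 genotypes, with Benjamini-Hochberg adjustment over 14243 genes and a threshold of 0.05. Members were also compared by 27 exact permutation tests, unadjusted. Correlations were adjusted over 36 of the 45 pairs of the 10 listed genes, since Areg has no value, and used 100000 permutations, whose smallest p is 1e-05. Both procedures were tested on simulated data. Named were all members, pairs with Erbb2 or an absolute r of at least 0.6, the 3 genes most like each member (unnamed gene models left out), Ctnnb1, and, from each list, examples among the genes with the smallest p. Alternatives were other filters, normalizations, weights and covariates, and tumors left out. The members, lists and tests were chosen with earlier results of these data known.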

Additional observations from a re-analysis of the deposited data

Results flagged for a closer look

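In 27 groups of 5 tumors (9 genes in 3 genotypes), 2 held a tumor far from the others by Dixon's test at the 95% level, which chance alone reaches in about 1 of 20 groups. Both were WT 1. Egfr was 7.91 in WT 1, against 9.37 to 9.76 in the other WT tumors. Hbegf was 6.75 in WT 1, against 9.53 to 10.30 in the others. WT 1 also had the lowest Erbb2 (9.63), Ereg (6.04) and Nrg1 (5.15) of all 15 tumors, and the lowest pan-leukocyte (8.36) and neutrophil (6.05) marker means. Its epithelial mean of 10.40 lay within the range of the other WT tumors, 9.71 to 10.63. The part of these markers in the low values was not tested.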

How the results depend on the processing

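No member passed the threshold under any of 666 alternatives for its 24 genotype differences. The direction held in 633 of them, and the lowest adjusted p for HET minus WT was 0.0682. Many of the alternatives could not turn a direction, so the count of 633 overstates how far directions were tried. Leaving out a tumor of the genotype not compared, or changing only the filter or the variance estimate, keeps the difference as it was. The difference HET minus WT stayed above 0 in Erbb2, Hbegf, Egfr and Nrg4 under the alternatives tried, though for Hbegf it was 0.33 with leukocyte and fibroblast covariates and 0.24 with the neutrophil covariate, in place of 1.16, and for Egfr 0.0634 without WT 1, in place of 0.41. With the neutrophil covariate, chosen after seeing the data, the direction turned for HET minus WT in Erbb3 (0.43), Ereg (-0.18) and Nrg1 (-0.33), for HOM minus WT in Erbb3 (0.62), Ereg (-0.36), Tgfa (-0.043) and Nrg1 (-0.30), and for HOM minus HET in Egfr (0.0137), Hbegf (0.20) and Nrg1 (0.0361). Other alternatives turned small differences. For HOM minus WT, Erbb3 was 0.17 with array weights, 0.22 with leukocyte and fibroblast covariates and 0.25 without WT 5 and HOM 5, Tgfa was -0.0284 with centred arrays, -0.12 with array weights and -0.00594 with the epithelial covariate, and Nrg1 was -0.32 with array weights. For HOM minus HET, Egfr was 0.039 without WT 5 and HOM 5, and Hbegf was 0.18 with leukocyte and fibroblast covariates. The cause was not tested. Leaving out 1 tumor at a time gave -0.0539 to 0.72 for Tgfa in HET minus WT, -0.0367 to 0.45 for Egfr, -0.22 to 0.25 for Erbb3, -0.18 to 0.19 for Tgfa and -0.21 to 0.90 for Nrg1 in HOM minus WT, and -0.38 to 0.10 for Egfr and -0.71 to 0.069 for Tgfa in HOM minus HET.

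The count of genes called over the series for HET minus WT, 2 as reported, was 0 with a filter at the 75th percentile, with array weights, with leukocyte and fibroblast covariates or with the neutrophil covariate, 1 with renewed quantile normalization, with only the 2 genotypes compared or with the epithelial covariate, and 10 without HET 1 and HET 3. Single tumors left out gave 1 to 48 calls, with 48 without HET 3 and 18 without HET 5. HOM minus WT gave 4 calls without WT 5 and HOM 5, in place of 0. HOM minus HET gave 6 calls without WT 5 and HOM 5, 1 without HET 1 and HET 3, and 0 to 3 with single tumors left out, the 3 without HET 5 and 1 without HET 3. The 7 pairs of members with an absolute r of at least 0.6 became 2 by Spearman's rho, 13 without HET 1 and HET 3, and 4 (without WT 1) to 12 (without HET 1) with single tumors left out. No paired analysis was possible because the replicate numbers only follow accession order and pair no tumors. Erbb4, below the array median on 14 of 15 arrays, is limited by its dim signal, and Nrg4 lay near the array medians.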

Other observations

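Epgn, the ligand gene beside Ereg, gave no relation with its neighbour that passed adjustment. It was highest in HET 2 (10.82), HOM 2 (9.90) and HET 4 (9.13), where Ereg was also high (10.19, 8.12 and 8.76). In HET 1, where Ereg was highest at 11.40, Epgn was only 6.76. Over 15 tumors Epgn and Ereg had r = 0.420 and rho = 0.386 (permutation p = 0.116 and 0.157). Epgn varied with Nrg1 (r = 0.782, rho = 0.693) and Tgfa (r = 0.731, rho = 0.729), and these were the 2 of 27 relations between further ligands and members that passed adjustment by Pearson's r (adjusted p = 0.0105 and 0.0255). By Spearman's rho neither passed (adjusted p = 0.0707 for each). Without HET 2 and HOM 2 they were 0.741 and 0.616. Tgfa also ran opposite to the B and plasma cell markers, of which 6 of 8 were tested (r = -0.802, adjusted permutation p = 0.00459), with r = -0.682 without HET 1 and WT 3 and rho of -0.689 that did not pass (adjusted p = 0.0772).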
